A study of Homo sapiens with 6 samples.

Results

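The FAT, Dachsous and CELSR cadherins are very large adhesion proteins of the cell surface, described here through 9 genes: FAT1, FAT2, FAT3, FAT4, DCHS1, CELSR1, CELSR2, CELSR3 and FJX1. The genes were selected on one measured value: FAT3 was among the largest falls after vitamin C treatment in these same libraries. The vitamin C to control difference of FAT3 is therefore a description with no test, and the other 8 genes were listed as its relatives and partners. All 9 were found among the 60675 gene identifiers of the count files. The samples were MDA-MB-231 cells, an established human triple-negative breast cancer line, in 3 wells treated with 100 µM vitamin C (sodium ascorbate) for 3 days and 3 control wells without added vitamin C. Both groups were grown in 6-well plates, and the medium was changed every day. RNA was depleted of ribosomal RNA and sequenced as paired-end reads, and the authors deposited the count of reads for each gene in each well. The study's methods describe, for cell culture in general, groups of 3 wells within an experiment and experiments that were repeated, but not whether the 3 sequenced wells of a group shared one experiment. For that reason p-values measure the spread among these wells, which may be technical.

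Cadherins of this class reach across the gap between neighbouring cells through long chains of cadherin repeats. In Drosophila, Fat binds Dachsous on the next cell, the Golgi kinase Four-jointed phosphorylates their cadherin repeats and tunes that binding, and the pair sets planar polarity, the alignment of cells within a sheet, and restrains growth through the Hippo pathway. Flamingo, the Drosophila relative of the CELSR proteins, binds itself across cell borders and belongs to the core polarity machinery together with Frizzled and Van Gogh, whereas the mammalian links from FAT proteins to Hippo signalling are less settled.

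Reads counted in genes were 13434130 to 19553914 in the vitamin C wells and 17664345 to 22373591 in the control wells, and unmapped reads made up 24.7% to 49.5% of the vitamin C libraries and 24.2% to 34.4% of the control libraries. Of 15261 genes with enough counts to test, the quasi-likelihood test of edgeR, adjusted by Benjamini-Hochberg, called 549 higher (3.6%) and 531 lower (3.48%) at an adjusted p under 0.05. With upper-quartile factors in place of the TMM factors (trimmed mean of M values) used throughout, the numbers were 687 and 377. The wells of the groups did not overlap for 4935 genes (32.3%), whichever the direction. The line was checked against its markers: VIM, an intermediate filament of mesenchymal cells, averaged 1256 ± 64.1 CPM in vitamin C wells and 1276 ± 45.3 CPM in control wells (SD, n = 3 each), while FN1, the matrix protein fibronectin, was called higher, at 557 ± 75.6 CPM with vitamin C and 318 ± 52.2 CPM in control wells (log2 fold change 0.81, edgeR adjusted p = 0.00909). CD44, a surface receptor, averaged 1143 ± 173 CPM in vitamin C wells and 962 ± 41.8 CPM in control wells (edgeR adjusted p = 0.144). The oestrogen receptor ESR1 and the basal keratin KRT5 had 0 counts in every well, and the progesterone receptor PGR had 0 to 4. The leukocyte marker PTPRC had 0 to 2 counts. PECAM1, an endothelial adhesion protein, was low, at 10 to 43 counts a well. It was called higher by edgeR (edgeR adjusted p = 0.0439) but not by DESeq2 (DESeq2 adjusted p = 0.06755). PECAM1 stood at 2.08, 1.88 and 2.16 CPM in vitamin C wells and 0.569, 1.11 and 1.19 CPM in control wells. The endothelial cadherin CDH5 lay at or under 0.0741 CPM. The part of PECAM1-expressing cells in the results below was not tested, and in bulk RNA a smaller share of expressing cells and less RNA per cell cannot be told apart.

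The genes differ widely in size. FAT3 (ENSG00000165323) spans 671.7 kb on the plus strand of chromosome 11 (GRCh38, chr11:92224818-92896473), and its canonical transcript has 28 exons and 13767 coding bases. FAT1 (ENSG00000083857, chr4:186587794-186726722, minus strand) has 27 exons and 13764 coding bases in its canonical transcript, nearly the coding length of FAT3. FAT4 (ENSG00000196159, chr4:125314918-125492932, plus strand) has the longest coding region of the 9 genes, with 14949 bases in 18 exons, and FAT2 (ENSG00000086570, chr5:151504092-151591331, minus strand) has 13047 coding bases in 24 exons. DCHS1 (ENSG00000166341, chr11:6621330-6655809, minus strand) encodes the Dachsous relative in 21 exons. The CELSR genes are built of 34 or 35 exons each, and they are CELSR1 (ENSG00000075275, chr22:46360834-46537620, minus strand), CELSR2 (ENSG00000143126, chr1:109249539-109275751, plus strand) and CELSR3 (ENSG00000008300, chr3:48636463-48662886, minus strand). FJX1 (ENSG00000179431, chr11:35618460-35620865, plus strand), the relative of four-jointed, is a single exon of 2406 bases and is the only member that is not itself a cadherin. Exons of FAT3, FAT1, FAT4, CELSR1, CELSR2 and FJX1 overlap those of no other gene in the annotation. Exons of FAT2 overlap 596 bases of a long non-coding RNA on the other strand (ENSG00000271795, 0 to 6 counts a well), those of DCHS1 overlap DCHS1-AS1 (0 or 1 count a well) and ENSG00000255410 (0 counts) on the other strand, and those of CELSR3 include the microRNA gene MIR4793. No source used here says whether the counting used strand. How it treated reads in the bases that FAT2 and DCHS1 share with opposite-strand genes is therefore not known.

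FAT3, an atypical cadherin known in the mouse retina for shaping the processes of amacrine neurons, was lower in every vitamin C well than in any control well. It had 58, 85 and 89 reads in vitamin C wells 1, 2 and 3 and 231, 191 and 194 reads in control wells 1, 2 and 3. Scaled to library size with TMM factors, FAT3 stood at 4.30, 6.16 and 4.47 CPM (counts scaled to a common library size) in the vitamin C wells and 13.1, 8.48 and 9.65 CPM in the control wells. The highest vitamin C well, number 2, thus lay under the lowest control well, number 2, and control well 1 stood above the others of its group. The means were 4.97 ± 1.03 CPM with vitamin C and 10.4 ± 2.43 CPM in control cells (SD, n = 3 each), a ratio of 0.477 and a log2 fold change of -1.07 (SE 0.20, 95% interval -1.49 to -0.64). Because FAT3 was picked for its fall, this interval describes the spread of the wells and is no test against 0. Without control well 1 the log2 fold change was -0.87, and without vitamin C well 2 it was -1.24. By size of fall, FAT3 was the 51st of all genes tested, and the 8th of the 482 genes called lower that had a mean of at least 100 counts, the value that put it on the list. Its neighbours in that order were H3C1, a histone H3 gene, at -1.08 on the log2 scale and PDK1, an inhibitory kinase of pyruvate dehydrogenase, at -0.99.

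**Figure D1:**
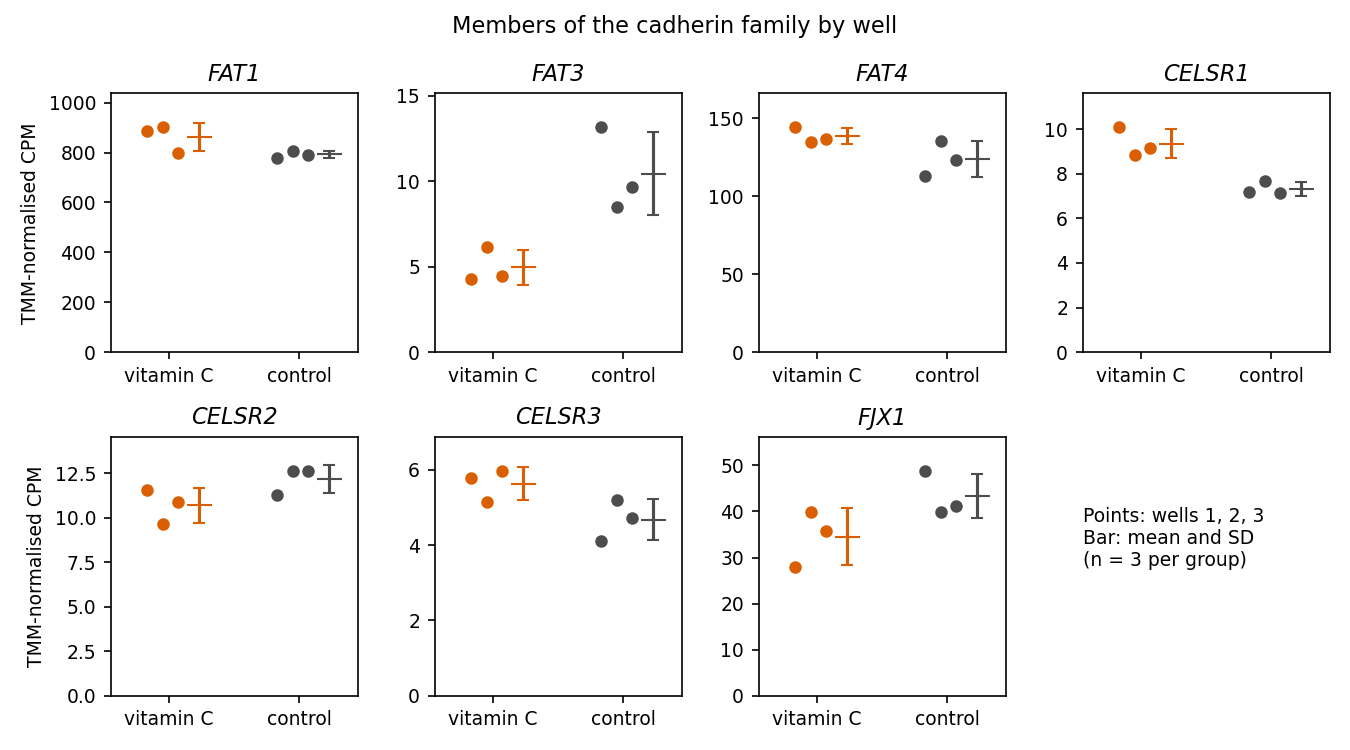
TMM-normalised CPM of the 7 members with enough counts to test, in each of 3 vitamin C wells (left, orange) and 3 control wells (right, grey), with wells 1 to 3 from left to right and the group mean and SD beside them. The 3 vitamin C wells of FAT3 sit between 4.30 and 6.16 CPM, under the control wells at 8.48 to 13.1 CPM, and those of CELSR1 sit above its control wells, whereas the groups of the other 5 genes overlap.

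None of the other members tested passed the threshold in either direction. Of the 8 members other than FAT3, 6 had enough counts, and edgeR and DESeq2 each called 0 higher and 0 lower, against 3.6% and 3.48% of all genes by edgeR. At an unadjusted p under 0.05, CELSR1 lay higher and FJX1 lower, 1 of 6 each way, beside 14.3% of all genes higher and 13.1% lower at that level. DESeq2 called 4.35% of all genes higher and 6.36% lower. The median log2 fold change of the 6 was 0.14 (range -0.32 to 0.35), beside 0.02 over all genes tested. Of these 6, only CELSR1 had groups that did not overlap, beside the 32.3% of all genes. The groups of FAT3 did not overlap either, but FAT3 was picked for its fall and is not counted.

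FAT1, which in mammalian cells binds regulators of actin at cell borders, was by far the most abundant member. Its level was 885, 902 and 798 CPM in the vitamin C wells and 779.5, 808 and 792 CPM in the control wells. Vitamin C well 3 fell among the control wells, so the groups overlapped. FAT1 averaged 862 ± 55.6 CPM with vitamin C and 793 ± 14.4 CPM in control cells (SD, n = 3 each). The log2 fold change was 0.12 (95% interval -0.04 to 0.28, edgeR adjusted p = 0.315). With 11939 to 18203 reads a well FAT1 had the narrowest interval of the members.

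FAT4, the mammalian Fat protein that binds DCHS1, stood at 144, 135 and 136 CPM in the vitamin C wells and 113, 135.5 and 123 CPM in the control wells. Control well 2 reached the level of the vitamin C wells, while control wells 1 and 3 lay below them. The means were 138 ± 4.99 CPM with vitamin C and 124 ± 11.4 CPM in control cells (SD, n = 3 each), for a difference of 0.16 on the log2 scale (95% interval -0.02 to 0.34, edgeR adjusted p = 0.225). DCHS1, its ligand, was nearly silent, with 5, 4 and 8 reads in the vitamin C wells and 2, 8 and 12 reads in the control wells. The control wells of DCHS1 held both the lowest and the highest count. DCHS2, the other Dachsous gene, had 0 to 4 reads a well. FAT2, a cadherin of squamous epithelium, had 0, 0 and 1 read in the vitamin C wells and 2, 1 and 1 reads in the control wells. Every well of FAT2 was under a floor of 3 reads, so no fold is given and a difference was not detectable at this depth. Neither FAT2 nor DCHS1 passed the filter on low counts.

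FJX1, whose Drosophila relative phosphorylates the cadherin repeats of Fat and Dachsous in the Golgi, had the most negative estimate after FAT3 with all wells in. Its level was 27.9, 39.99 and 35.8 CPM in the vitamin C wells and 48.9, 39.9 and 41.2 CPM in the control wells. Vitamin C well 2 lay just above control well 2, so the groups touched. FJX1 averaged 34.6 ± 6.16 CPM with vitamin C and 43.3 ± 4.83 CPM in control cells (SD, n = 3 each), which gave -0.32 as the log2 fold change (SE 0.13, 95% interval -0.60 to -0.05). It did not pass after adjustment (edgeR adjusted p = 0.128, unadjusted p = 0.0263, DESeq2 adjusted p = 0.0805). With no filter on low counts, FJX1 passed (edgeR adjusted p = 0.0152), under a setting in which 1079 genes were called higher and 1166 lower. Without vitamin C well 1 the FJX1 estimate was -0.20, and without control well 1 it was -0.23, each nearer to 0 than that of CELSR2 in the same setting (-0.24 in both). As with FAT3, control well 1 was the highest of the 6 and vitamin C well 1 the lowest.

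The CELSR genes encode adhesion receptors that combine cadherin repeats with a membrane domain of the G protein-coupled receptor type. CELSR1, needed in the mouse for planar polarity of the neural tube, inner ear and skin, stood at 10.1, 8.84 and 9.13 CPM in the vitamin C wells and 7.17, 7.68 and 7.11 CPM in the control wells. All 3 vitamin C wells of CELSR1 lay above all 3 control wells. CELSR1 averaged 9.35 ± 0.650 CPM with vitamin C and 7.32 ± 0.312 CPM in control cells (SD, n = 3 each). Its log2 fold change of 0.35 (SE 0.12, 95% interval 0.08 to 0.62) did not pass (edgeR adjusted p = 0.0981, unadjusted p = 0.0154, DESeq2 adjusted p = 0.222).

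CELSR2 was the most abundant of the 3 CELSR genes, also per kilobase, and had its lower mean with vitamin C, at 11.6, 9.63 and 10.9 CPM in the vitamin C wells against 11.3, 12.6 and 12.6 CPM in the control wells. Vitamin C well 1 lay above control well 1, and the log2 fold change was -0.19 (95% interval -0.45 to 0.07, edgeR adjusted p = 0.328). CELSR3, which in the mouse guides the growth of axon tracts, stood at 5.78, 5.14 and 5.97 CPM in the vitamin C wells and 4.10, 5.19 and 4.73 CPM in the control wells. Control well 2 lay above vitamin C well 2, and the log2 fold change was 0.27 (95% interval -0.07 to 0.61, edgeR adjusted p = 0.288). The intervals of CELSR2 and CELSR3 take in 0.

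**Figure D2:**
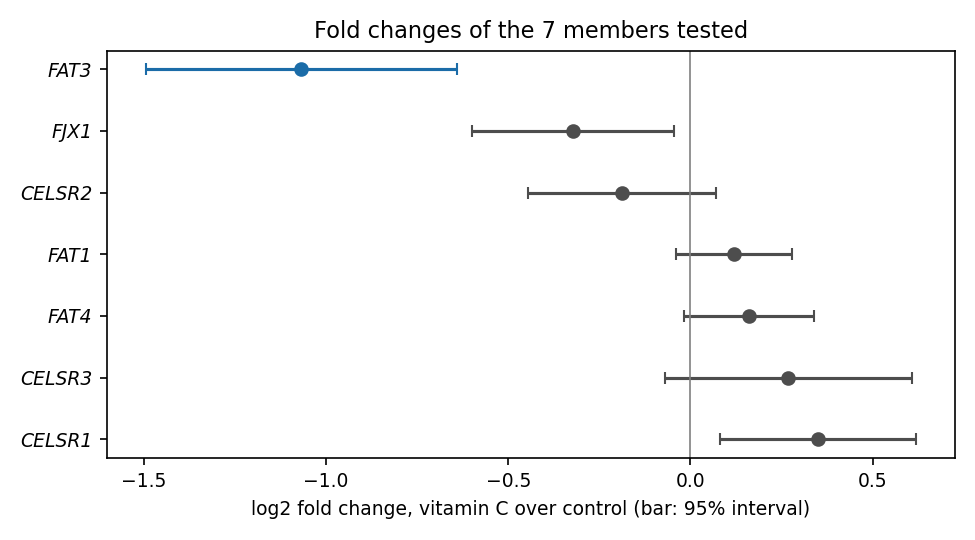
Difference between vitamin C and control wells (vitamin C over control, log2 scale) of the 7 members tested, ordered from the largest fall at the top to the largest rise at the bottom, with 95% intervals from edgeR (3 wells per group). FAT3 (blue) stands at -1.07 with an interval of -1.49 to -0.64, which is no test since FAT3 was chosen for its fall. The other 6 estimates lie between -0.32 and 0.35.

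Levels can be set between genes once counts are divided by length. Per kilobase of exon, FAT1 was at 53.3 ± 3.44 CPM with vitamin C and 49.1 ± 0.889 CPM in control cells, and FJX1 followed with 14.4 ± 2.56 CPM with vitamin C and 18.0 ± 2.01 CPM in control cells (SD, n = 3 each). FAT4 came next, at 6.51 ± 0.234 CPM per kilobase with vitamin C and 5.82 ± 0.536 in control cells. FAT1 alone made up 69.9% ± 2.53 of the summed per-kilobase level of the 9 genes with vitamin C and 65.3% ± 1.68 in control cells. FJX1, not itself a cadherin, made up 18.8% ± 2.97 of that sum with vitamin C and 23.93% ± 2.425 in control cells. Among the 9 genes, the MDA-MB-231 repertoire was thus mainly FAT1, with FJX1 and FAT4 behind it. The CELSR genes all lay under 1 CPM per kilobase in every well.

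FAT3 was a minor transcript in both groups, and its place in the order of the 9 genes was not the same in both. It took place 7 with vitamin C, at 0.253 ± 0.0523 CPM per kilobase, and place 5 in control cells, at 0.531 ± 0.124 (SD, n = 3 each). With vitamin C no neighbouring genes in the order overlapped: FAT1, FJX1, FAT4, CELSR2, CELSR1, CELSR3, FAT3, DCHS1, FAT2. In control cells FAT3 stood between CELSR2 and CELSR1, and only FAT3 (0.432 to 0.670 CPM per kilobase) and CELSR1 (0.443 to 0.479) overlapped there. The ratio of FAT1 to FAT3 per kilobase was 250.2, 178 and 217 in the vitamin C wells and 72.0, 116 and 99.7 in the control wells. This ratio and the change of place restate the fall for which FAT3 was chosen, and are not further results. The ratio of FAT1 to FAT4 was 8.08, 8.81 and 7.71 in the vitamin C wells and 9.10, 7.85 and 8.48 in the control wells, with ranges that overlapped. DCHS1 stood at 0.0328 ± 0.00535 CPM per kilobase with vitamin C and 0.0330 ± 0.0224 in control cells, and FAT2 was lower still.

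**Figure D3:**
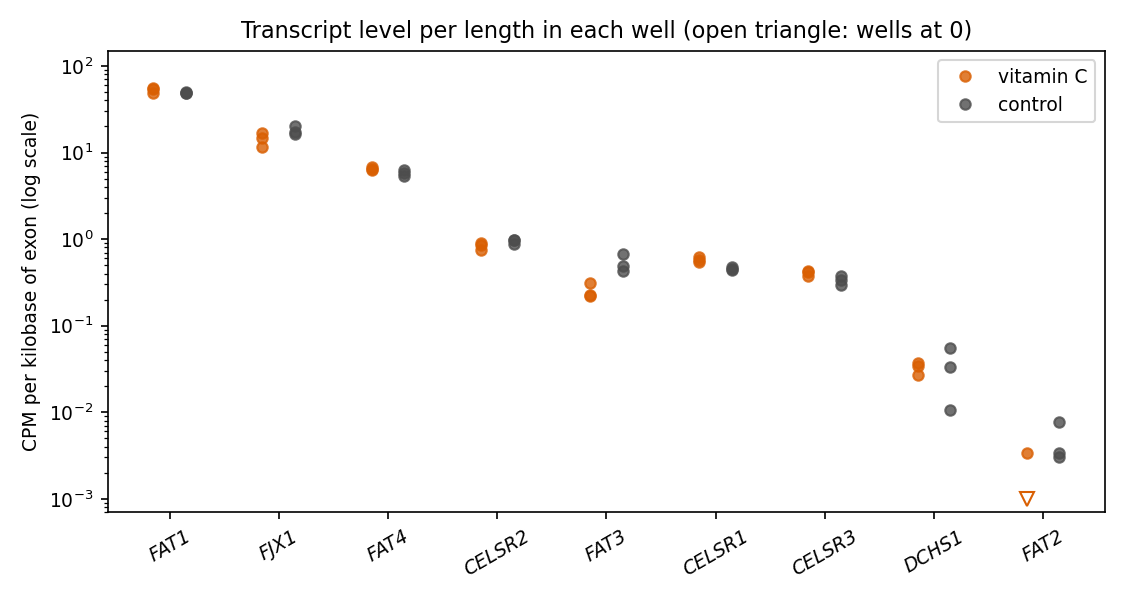
TMM-normalised CPM per kilobase of merged exon length for each of the 9 members on a log axis, with vitamin C wells (orange) left of control wells (grey) and an open triangle for FAT2, which had no read in 2 vitamin C wells. FAT1 lies near 50 CPM per kilobase and DCHS1 under 0.1, and FAT3 lies under CELSR1 and CELSR3 with vitamin C but beside CELSR1 in control cells.

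The FAT3 pattern over the 6 wells was compared with that of every gene that had a symbol and a mean of at least 100 counts, as the root mean square distance between centred log2(CPM + 0.5) values. The nearest of 10141 genes were SNORD3B-2, a copy of the U3 small nucleolar RNA (distance 0.16), HK2, a hexokinase (0.17), SLC7A2, a transporter of cationic amino acids (0.18), IL7R, the interleukin-7 receptor (0.20), and POP1, a protein of RNase P and RNase MRP (0.20). HK2 stood at 47.7, 61.9 and 35.8 CPM in the vitamin C wells and 105.4, 86.7 and 89.9 CPM in the control wells. SLC7A2 stood at 43.3, 49.0 and 36.9 CPM in the vitamin C wells and 87.4, 63.0 and 62.3 CPM in the control wells. All 5 genes were highest in control well 1, and none had overlapping groups. FAT3 has both traits, so they follow from picking its nearest genes. SNORD3B-2 has near-identical copies, so its count is uncertain. Among the members, FJX1 was nearest to FAT3, in place 179 (distance 0.36), followed by CELSR2 in place 3718 (0.52), FAT1 in place 7034 (0.60), FAT4 in place 8402 (0.65) and CELSR1 in place 9329 (0.72). The order of these members is also that of their log2 fold changes, from -0.32 for FJX1 to 0.35 for CELSR1, so it is not a further result. CELSR3, FAT2 and DCHS1 had means under 100 counts and were not compared. These distances describe 6 wells that share their groups and libraries.

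**Figure D4:**
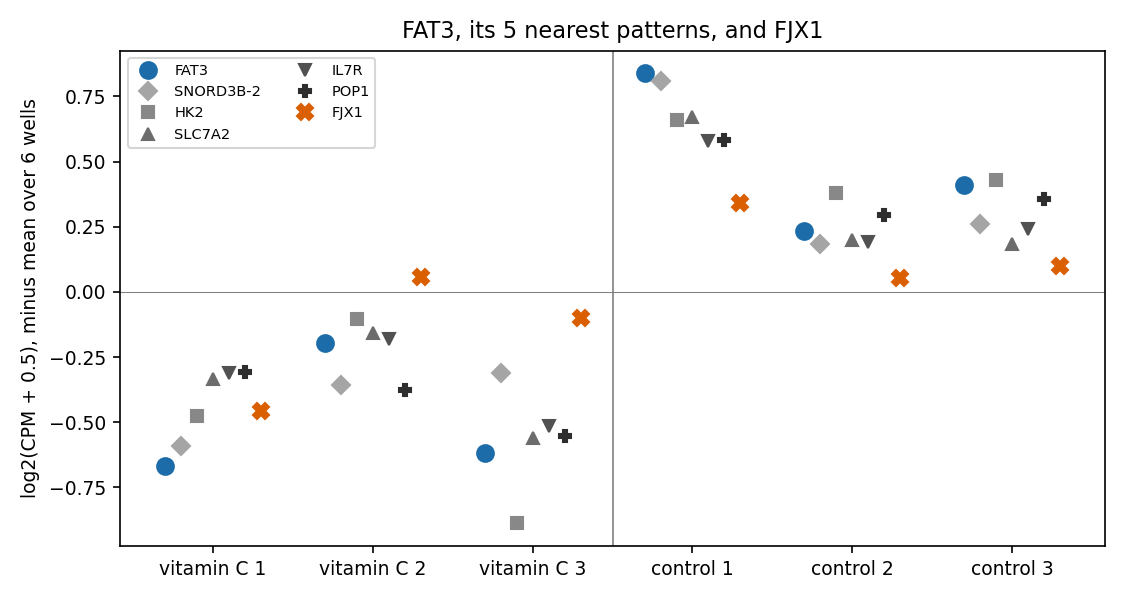
Log2(CPM + 0.5) of FAT3 (blue), its 5 nearest genes (grey) and FJX1 (orange) in each well, minus the mean of the gene over the 6 wells, with vitamin C wells on the left and control wells on the right. Control well 1 is the highest for all 7 genes, and FJX1 is nearly level between vitamin C well 2 and control well 2.

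The RefSeq promoter windows (250 bases before to 50 after the start, GRCh38.p14) held 5 of the 9 members, FAT1 with 2 starts, and FAT3, FAT4, DCHS1 and CELSR1 were not among them. The windows were searched for ACGTG, a form of the core of the element that hypoxia-inducible factors bind. The reason was that HK2, one of the nearest genes to FAT3, is a known target of those factors. Other forms of the core were not searched. On the other strand the form searched reads CACGT. Matches on opposite strands overlap where both are present in 6 bases. This form, on either strand, was in 7518 of 35116 windows of the same length (21.4%). FJX1 held it once on each strand, overlapping, in 6 bases that begin 85 bases before the start, CELSR3 held 1 match starting 127 bases before the start, and the windows of FAT1, FAT2 and CELSR2 held none. The 250 bases before the start of FJX1 and CELSR3, the members with a match, are shown 5′ to 3′ on the strand of the gene, with the matches in capitals. FJX1 is from chr11:35618210-35618459 (plus strand) and CELSR3 from chr3:48662887-48663136 (minus strand).
FJX1: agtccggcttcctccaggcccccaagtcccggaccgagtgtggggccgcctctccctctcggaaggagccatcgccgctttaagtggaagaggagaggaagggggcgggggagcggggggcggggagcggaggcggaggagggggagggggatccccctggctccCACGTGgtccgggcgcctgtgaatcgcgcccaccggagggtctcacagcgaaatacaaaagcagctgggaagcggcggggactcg
CELSR3: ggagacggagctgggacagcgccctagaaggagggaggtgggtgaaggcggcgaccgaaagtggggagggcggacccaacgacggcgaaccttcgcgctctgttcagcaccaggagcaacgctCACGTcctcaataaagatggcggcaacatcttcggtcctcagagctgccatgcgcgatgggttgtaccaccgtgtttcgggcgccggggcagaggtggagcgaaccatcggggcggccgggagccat
A match is a description of the letters. Of the 2 members with a match, FJX1 had a lower mean with vitamin C (log2 fold change -0.32) and CELSR3 a higher one (0.27). Neither passed the test. FAT3 had no window, and a link of matches to levels was not tested.

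The wider pathways around these cadherins were described through lists of their other genes. Of 24 planar polarity genes, 19 were tested, 1 was higher, 1 was lower (3.6% and 3.48% of all genes by edgeR) and 17 did not pass. The median log2 fold change was 0.12 beside 0.02 over all genes. At an unadjusted p under 0.05 by edgeR, 5 were higher and 2 lower of 19 (14.3% and 13.1% of all genes). DESeq2 called 2 higher and 1 lower. FZD3, a Frizzled receptor of the core polarity machinery, fell to 11.8 ± 1.07 CPM with vitamin C, against 18.2 ± 1.56 CPM in control cells (SD, n = 3 each). The wells read 13.1, 11.1 and 11.3 CPM with vitamin C and 19.9, 17.0 and 17.6 CPM in control cells, with no overlap, and the log2 fold change was -0.62 (SE 0.11, edgeR adjusted p = 0.0150). FZD6, the other polarity Frizzled on the list, was more abundant, also per kilobase, and averaged 136 ± 15.4 CPM with vitamin C and 135 ± 4.84 CPM in control cells (edgeR adjusted p = 0.968, groups overlapping). FUZ, a polarity effector known for its part in building cilia, was higher, at 3.04, 3.62 and 2.66 CPM with vitamin C and 1.25, 1.60 and 1.24 CPM in control cells. Its log2 fold change was 1.16 (SE 0.22, edgeR adjusted p = 0.0172). Both calls were lost without control well 1, where edgeR called 69 genes higher and 59 lower in all.

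Of 24 Hippo pathway genes, 23 were tested, 0 were higher, 1 was lower (3.6% and 3.48% of all genes by edgeR) and 22 did not pass. The median log2 fold change was -0.09. At an unadjusted p under 0.05, 2 Hippo genes were higher and 3 lower of 23 (14.3% and 13.1% of all genes), and DESeq2 called 0 higher and 2 lower. FRMD6, a scaffold upstream of the Hippo kinases, stood at 226, 240 and 261 CPM in the vitamin C wells and 374, 312 and 294 CPM in the control wells. The groups did not overlap, and the log2 fold change was -0.43 (SE 0.10, edgeR adjusted p = 0.0290). FRMD6 did not pass without control well 1 or 2 or without vitamin C well 1 or 2. YAP1, the transcriptional partner that the pathway restrains, was at 286 ± 31.9 CPM with vitamin C and 362 ± 28.4 CPM in control cells (SD, n = 3 each). It missed the edgeR threshold (log2 fold change -0.34, adjusted p = 0.0509) and passed by DESeq2 (adjusted p = 0.00906), and it is named here after its values were seen.

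None of 20 targets of YAP and TAZ passed by edgeR. At an unadjusted p under 0.05, 4 were higher and 2 lower of 20 (14.3% and 13.1% of all genes), DESeq2 called 1 higher (TGFB2) and 1 lower (CRIM1), and the median log2 fold change was 0.02, the value over all genes. Those with the highest mean CPM over the 6 wells, not divided by length, were NT5E, the surface enzyme CD73, at 957 ± 37.1 CPM with vitamin C and 1080 ± 82.2 CPM in control cells (SD, n = 3 each), and MYOF, a membrane repair protein, at 926 ± 44.3 CPM with vitamin C and 852 ± 48.0 CPM in control cells (edgeR adjusted p = 0.170 and 0.321).

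Of 52 other cadherin genes, 41 had too few counts to test, and of the 11 tested 0 were higher and 0 lower by edgeR and by DESeq2 (2 higher and 0 lower of 11 at an unadjusted p under 0.05, beside 14.3% and 13.1% of all genes, median log2 fold change 0.03). DSG2, a desmosomal cadherin, had the highest mean CPM, not divided by length, at 221 ± 7.16 CPM with vitamin C and 217 ± 6.01 CPM in control cells (SD, n = 3 each, edgeR adjusted p = 0.842). CLSTN1, a calsyntenin, followed at 97.1 ± 7.18 CPM with vitamin C and 95.1 ± 8.53 CPM in control cells (edgeR adjusted p = 0.841). CDH1, the epithelial cadherin, had the largest estimate of this list (log2 fold change 1.33) on scattered values of 3.78, 1.38 and 6.52 CPM in the vitamin C wells and 0.512, 1.95 and 2.24 CPM in the control wells. Its groups overlapped, and it passed only without vitamin C well 2 (edgeR adjusted p = 0.0395) among the wells left out singly.

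**Figure D5:**
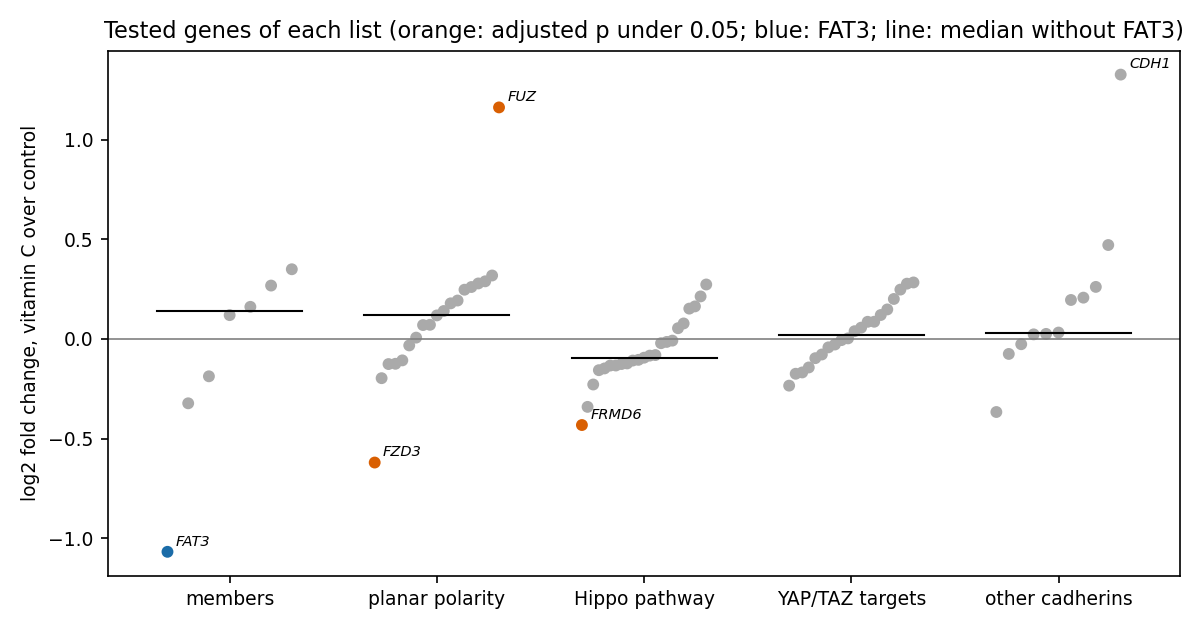
Difference between vitamin C and control wells (vitamin C over control, log2 scale) of every tested gene in the members, the planar polarity, Hippo and YAP/TAZ target lists and the other cadherins, sorted within each list, with the median (without FAT3) as a black line. FAT3 (blue, -1.07) lies below every other point, FUZ, FZD3 and FRMD6 (orange) are the genes past the threshold outside the members, and the median lines lie between -0.09 and 0.14.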

How the data were processed

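RNA-seq of 6 libraries of MDA-MB-231 cells was analysed, 3 per group, with groups taken from the sample labels. According to the submitters' processing notes, CASAVA 1.4, Trim Galore and STAR with build hg38 were used, with the STAR version and annotation release not given in any source used here. The authors deposited, for each Ensembl gene, the raw count of its reads, without normalization. The 4 summary lines of each file (unmapped, multimapping, unassigned and ambiguous reads) held 50.6% to 69.7% of reads and entered neither the library sizes nor the tests. Symbols and exon lengths came from GENCODE 44 on GRCh38, with 56558 of 60675 identifiers matched.

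Counts were fitted across all genes in R 4.3.3 with edgeR 4.0.16 (TMM, filterByExpr with a minimum count of 10, quasi-likelihood F test, two-sided, Benjamini-Hochberg adjustment, threshold 0.05), and DESeq2 1.42.0 was the alternative tool. The biological coefficient of variation was 9.40%. On data simulated for vitamin C against control with 200 changed genes, edgeR over 15062 genes recovered 86.6% of 1.5-fold and 100% of 2-fold and 3-fold changes, with 10 false among 201 calls, and DESeq2 over 15261 genes recovered 88.1%, 100% and 100%, with 13 false among 205. Recovery for single genes of the data can differ from these simulated figures. CDH1, with scattered wells, did not pass at a log2 fold change of 1.33 (edgeR adjusted p = 0.113). Intervals are edgeR estimates with a t quantile at edgeR's degrees of freedom. Replicate libraries differed by more than sampling noise in every pair (chi-square per degree of freedom 4.54 to 21.6).

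The members and the gene lists were chosen with earlier results of these data known. The text names all members, in each list up to 4 genes past the threshold ranked by edgeR p, or else the 2 with the highest mean CPM, the 5 genes nearest to FAT3 and genes whose exons overlap a member. YAP1, TGFB2, CRIM1, FZD6, DCHS2, VANGL1, PRICKLE2 and CCN1, and the neighbours of FAT3 in the order of falls, were named after their values were seen. CDH1 was listed as a marker of the line, and was named among the other cadherins after its values were seen. Alternatives were other normalization factors, no filter, DESeq2, calls by both tools, a replicate block, thinning to the shallowest library, removal of an exon length trend and each library left out, and the omission of both control 1 and vitamin C 2 was chosen after seeing the data. A deposited table of the whole series was not used.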

Additional observations from a re-analysis of the deposited data

How the results depend on the processing

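FAT3 stayed lower under every alternative run, with a log2 fold change of -1.24 (without vitamin C well 2) to -0.87 (without control well 1), and the 6 other members tested kept the sign of their estimate and stayed outside the threshold in all of them, except that FJX1 was called lower with no filter (1 member called). With each well left out in turn, the members other than FAT3 called higher and lower numbered 0. Of the planar polarity genes, 3 were called higher with upper-quartile factors (FUZ, VANGL1 and PRICKLE2), 2 with no filter and 2 by DESeq2 (FUZ and VANGL1), and with control 1 and vitamin C 2 both left out 0 were higher and 0 lower. Single wells left out gave 0 to 2 higher and 0 to 1 lower. Of the Hippo genes, 2 were lower (FRMD6 and YAP1) with the relative log expression factors of DESeq2, with no filter, by DESeq2 and with the exon length trend removed, 0 with both wells left out, and 0 to 2 with single wells left out. Of the YAP and TAZ targets, 1 was higher with upper-quartile factors (TGFB2), 2 with no filter (TGFB2 and CCN1), 1 by DESeq2 (TGFB2) and 0 to 1 with single wells left out, and 1 was lower (CRIM1) with no filter, by DESeq2 and with the length trend removed. Among other cadherins, 1 was higher (CDH1) with no filter and with both wells left out, and 0 to 1 with single wells left out. The cause of these shifts was not tested.

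Replicate numbers did not pair the wells, since deviations of wells with the same number correlated at -0.016, -0.056 and -0.045 over 15261 genes and no number (0 of 3) correlated best with itself. With the replicate block, FAT3 had a log2 fold change of -1.05, 0 other members were called, and all calls numbered 393 higher and 338 lower in place of 549 and 531. The all-gene calls, higher and lower, were 1079 and 1166 with no filter, 586 and 857 by DESeq2, and 153 and 115 with both wells left out. They were 231 and 157 without vitamin C 1, 272 and 231 without vitamin C 2, 942 and 958 without vitamin C 3, 69 and 59 without control 1, 81 and 61 without control 2, and 305 and 388 without control 3.

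Depth limits FAT2 and DCHS1, with at most 2 and 12 reads a well, and with 3 wells a group the intervals of CELSR1, CELSR3 and FJX1 reach 0.62, 0.61 and -0.60 on the log2 scale.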
